A study of Mus musculus with 12 samples.

Results

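The mitochondrial ribosomal protein genes are the nuclear genes named Mrpl and Mrps, whose products are made in the cytosol and imported to build the large and the small subunit of the ribosome inside mitochondria. They were chosen by symbol alone, as every row whose name is Mrpl or Mrps followed by a number and at most one letter. The rule gave 78 genes of the 27179 in the count table, 49 named for the large subunit and 29 for the small. Their messenger RNA was measured in epididymal white fat of male C57BL/6J mice fed chow, 6 given saline and 6 given sodium epinephrine at 0.5 mg/kg into the peritoneum, with the tissue taken 1 h later. All mice were of that inbred strain, and the labels list no transgene or deletion. The labels give the saline mice, called vehicle here, ages of 12 to 17 weeks and the epinephrine mice ages of 18 to 23 weeks, each age once, so that listed age and treatment cannot be told apart. The tissue is bulk RNA, in which fewer cells of a type and less RNA per cell cannot be told apart.

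The mitochondrial ribosome translates only the messenger RNAs of the mitochondrial genome, which encode core subunits of the respiratory chain and of the ATP synthase. Every protein of this ribosome is encoded in the nucleus, whereas its ribosomal RNAs come from mitochondrial DNA, so that assembly draws on both genomes. Epinephrine acts on fat cells through adrenergic receptors, raises cyclic AMP and sets off lipolysis.

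The library totals lay between 24821601 and 34405433 counts. All 10 adipocyte markers were detected in every library, and their summed share of counts ranged from 1.38% to 3.96% in vehicle and from 1.71% to 3.55% in epinephrine libraries. Transcripts of the epididymis, the sperm duct that lies beside this fat depot, were present in unequal amounts. The 12 epididymal markers summed to between 0.000968% and 4.51% of counts in vehicle libraries and to between 0.00297% and 3.3% in epinephrine libraries. One marker, Crisp4, had no count in 1 library, and none of the 12 differed between the groups by edgeR's adjusted p. In vehicle 2, epinephrine 1 and epinephrine 2, Gpx5, an epididymal secretory gene, held over 0.5% of all counts. The counts of members called are given with and without these libraries.

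The genes lie on 17 chromosomes, and many promoters among them carry short motifs known from nuclear genes of mitochondrial function. Short motifs, 3 in all, were searched on both strands in the 250 bases before and 50 bases after each start site in the RefSeq promoter table (GRCm38.p6), which held 75 promoters for 69 of the 78 genes. CCGGAAG, a form bound by ETS factors such as GABP, was found in 26 of these promoters, 34.7% against 8.86% of all 32851 mouse promoters in the table. AAGATGGC, a form bound by YY1, was found in 12, 16% against 2.75%. A palindromic 10-letter form of the NRF1 motif was found in 3, one of them that of Mrpl9, 4% against 0.971%. The ETS and YY1 forms can overlap in the letters AAG, one promoter can hold several motifs, and a match is a description of letters and not of binding. The 120 bases before the start site are printed for 4 genes with a match and for the 2 genes, Mrpl37 and Mrps6, whose levels varied most between libraries, 5′ to 3′ on the strand of the gene, with matches to the motifs on either strand in capitals.
Mrps11, chr7:78783011-78783130, plus strand: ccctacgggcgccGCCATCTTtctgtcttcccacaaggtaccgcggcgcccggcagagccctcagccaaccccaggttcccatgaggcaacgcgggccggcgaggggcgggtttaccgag
Mrps18a, chr17:46110884-46111003, plus strand: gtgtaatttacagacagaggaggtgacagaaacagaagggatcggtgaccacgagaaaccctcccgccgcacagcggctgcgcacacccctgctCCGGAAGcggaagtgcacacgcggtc
Mrpl43, chr19:45006443-45006562, minus strand: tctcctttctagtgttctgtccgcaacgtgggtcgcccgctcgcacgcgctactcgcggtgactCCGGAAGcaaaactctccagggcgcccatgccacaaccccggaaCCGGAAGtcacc
Mrpl52, chr14:54426789-54426908, plus strand: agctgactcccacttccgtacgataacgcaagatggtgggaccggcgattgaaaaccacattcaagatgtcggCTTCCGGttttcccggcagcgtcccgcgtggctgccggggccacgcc
Mrpl37, chr4:107066867-107066986, minus strand: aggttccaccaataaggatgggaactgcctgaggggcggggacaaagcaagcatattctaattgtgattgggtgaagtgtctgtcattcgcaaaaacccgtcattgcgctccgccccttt
Mrps6, chr16:92058216-92058335, plus strand: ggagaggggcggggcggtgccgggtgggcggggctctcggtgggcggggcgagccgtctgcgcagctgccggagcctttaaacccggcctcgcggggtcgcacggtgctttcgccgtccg
The Mrps11 stretch holds the YY1 form on the opposite strand. Those of Mrps18a, Mrpl43 and Mrpl52 hold the ETS form, Mrpl43 in 2 places and Mrpl52 on the opposite strand. The stretches of Mrpl37 and Mrps6 hold none of the 3, although the YY1 form lies just after the start site of Mrpl37.

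Messenger RNA of the mitochondrial ribosomal proteins was nearly level between the groups 1 h after epinephrine. Of the 78 genes, 77 had enough counts to be tested, and 1 of them, Mrpl54, rose and 0 fell at an edgeR adjusted p under 0.05. Over all 16175 genes tested, 6.23% passed in either direction, 2.65% higher and 3.58% lower. At an unadjusted p under 0.05 there were 8 of the 77, 3 higher and 5 lower, against 17.2% of all genes, 6.33% higher and 10.9% lower. No member had all 6 epinephrine libraries above or all 6 below the vehicle libraries, which held for 2.04% and 2.74% of all genes. The median log2 fold change, epinephrine minus vehicle, was 0.026 for the members, against -0.001 over all genes tested. By name alone, it was 0.033 for the Mrpl and 0.019 for the Mrps genes. Values above 0 were found for 46 of the 77, against 49.8% of all genes.

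**Figure D1:**
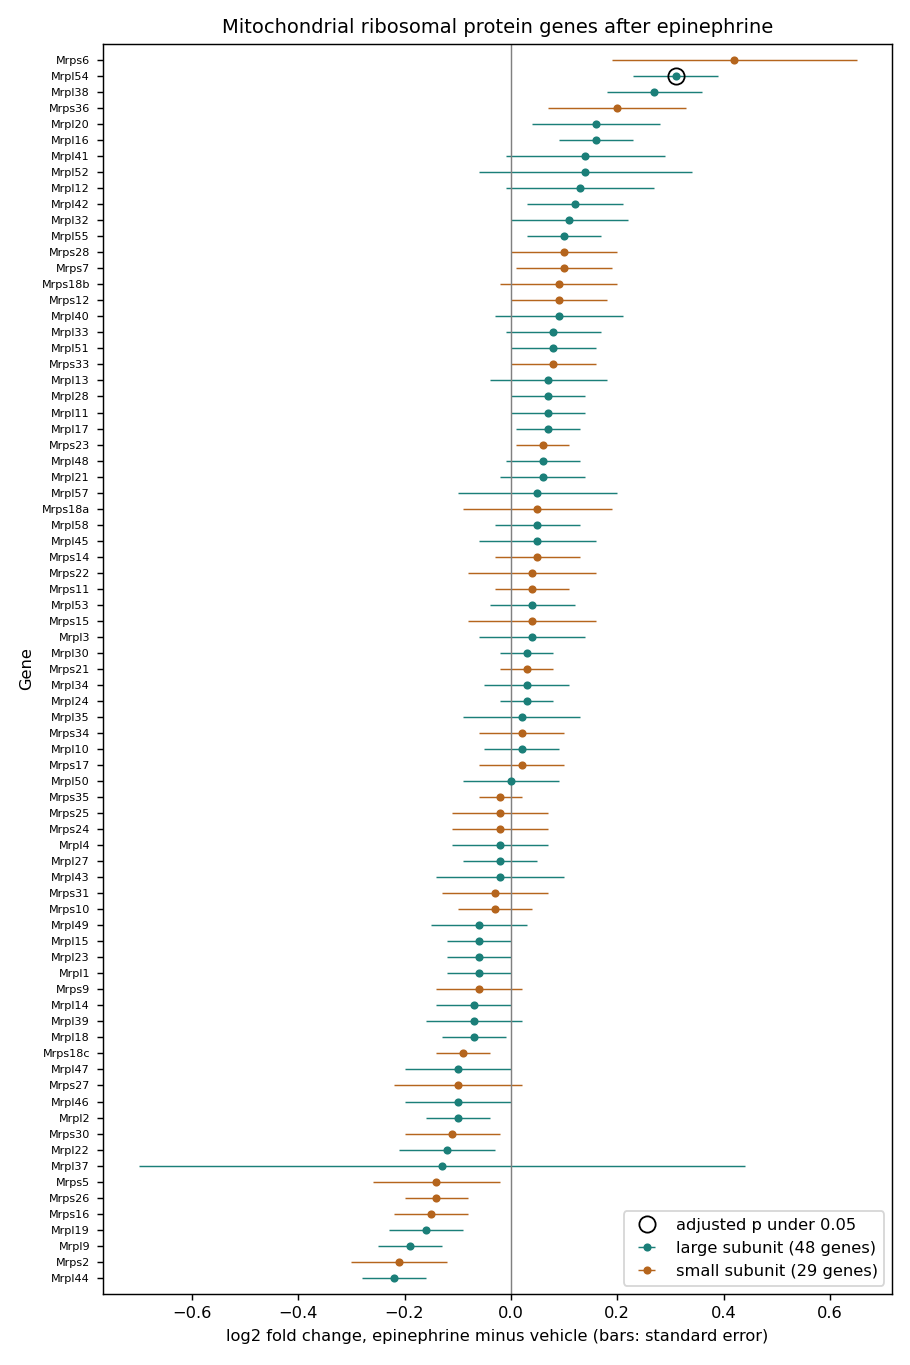
Log2 fold change of each of the 77 tested genes, epinephrine minus vehicle, with its standard error (n = 6 mice per group), ordered by size and coloured by the subunit in the gene name. Values ran from -0.22 for Mrpl44 to 0.42 for Mrps6, and the circled Mrpl54 was the 1 gene past the threshold.

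The fold changes of these genes were also packed closely. A log2 fold change within 0.2 of 0 was found for 72 of the 77, or 93.5%, against 59% of all genes tested. The 95% confidence interval lay wholly within a 1.5-fold change in either direction for 74, or 96.1%, against 50.9% of all genes. The 3 exceptions were Mrps6, Mrpl37 and Mrpl52. The median standard error was 0.0858 for the members and 0.177 for all genes, and the median coefficient of variation over the 12 libraries was 10.1% and 22.4%, so that smaller changes could be seen here than in most genes. Members were not matched to the other genes on level, and the part of level in the narrower spread was not tested.

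**Figure D2:**
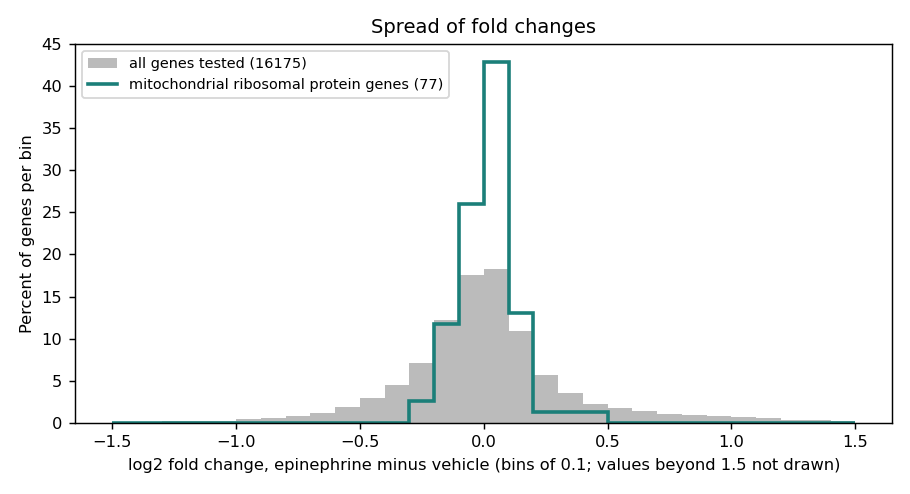
Share of genes, in percent, in each bin of 0.1 of the log2 fold change, epinephrine minus vehicle, for all 16175 genes tested (grey) and for the 77 mitochondrial ribosomal protein genes (line). The line is the taller and narrower, with 93.5% of members within 0.2 of 0 against 59% of all genes.

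Among large-subunit genes, Mrpl54 encodes a protein that bacterial ribosomes lack. Its normalised level was 20.9 CPM (counts scaled to a common library total) in the lowest vehicle library, 22.3 at the median and 25.4 in the highest, and 23.9, 27.6 and 32 CPM in the epinephrine libraries. The groups overlapped by 1 library on each side, since the lowest epinephrine library lay below the highest vehicle library. The means were 22.6 ± 1.54 and 28.0 ± 3.21 CPM (SD, n = 6), a log2 fold change of 0.31 (SE 0.08, edgeR adjusted p = 0.0459). The call rests close to the threshold: it was lost in 17 of 25 other settings, and the log2 fold change lay between 0.20 and 0.35 in all 25. Mrpl54 lies at chr10:81264722-81266926 on the minus strand (GRCm38), and its start site is 26 bases from that of Apba3, which is read the other way. Apba3, which encodes an adaptor protein, had a log2 fold change of 0.09 (adjusted p = 0.772).

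Mrpl44 encodes a protein of the large subunit that resembles an RNase III. It ranged from 21.6 through a median of 23.9 to 26.7 CPM with vehicle, and from 19.5 through 20.6 to 21.6 CPM with epinephrine. The groups met at 21.6 CPM, and all other vehicle libraries lay higher. The log2 fold change was -0.22 (SE 0.06), and the edgeR adjusted p of 0.051 did not pass. It passed with upper quartile scaling, at 0.0185, with library size alone, at 0.00207, and with DESeq2, at 0.0313. It also passed with the filter at a mean CPM of 1, at 0.0457, with limma-voom, at 0.0279, and with the epididymal covariate, at 0.0404. Replicate numbers 4 to 6 alone gave 0.0495, and omission of vehicle 3 gave 0.0399. No other setting called it, the replicate block among them. Mrpl44 shares 126 exon bases with Wdfy1 on the opposite strand, and the strand setting of counting is not given.

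Mrpl38 and Mrpl9, also of the large subunit, came next. Mrpl38 averaged 46.3 ± 4.21 CPM in vehicle and 56.1 ± 6.98 CPM in epinephrine libraries (log2 fold change 0.27, SE 0.09, adjusted p = 0.114). Mrpl9, whose promoter holds the NRF1 palindrome, stood at 45.8 ± 3.33 and 40.2 ± 2.80 CPM (log2 fold change -0.19, SE 0.06, adjusted p = 0.13). Neither passed, and in both the groups overlapped. Mrpl9 shares 157 exon bases with Oaz3 on the opposite strand. DESeq2 called 2 members higher, Mrpl54 and Mrpl38, and 1 lower, Mrpl44. Of the 22945 genes to which DESeq2 gave a fold change, low-count genes among them, the shares were 3.31% and 3.8%. A fit blocked on replicate number called 0 higher and 0 lower, against 2.38% and 2.26%. In replicate numbers 4 to 6 alone edgeR called Mrps6 higher and Mrpl44 lower, against 4.4% and 3.99%.

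**Figure D3:**
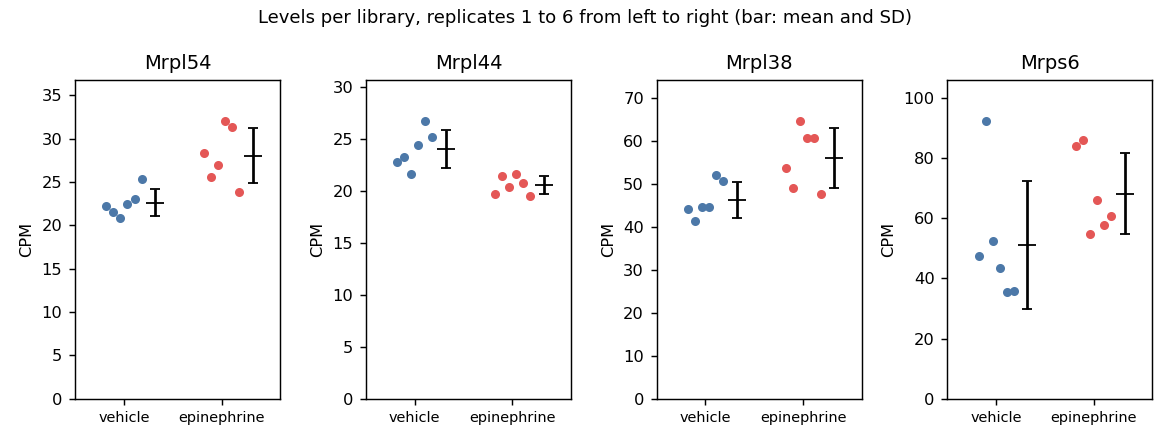
TMM-normalised CPM of Mrpl54, Mrpl44, Mrpl38 and Mrps6 in each of the 6 vehicle and 6 epinephrine libraries, in replicate order from left to right, with the mean and SD of each group. The axes start at 0, the groups overlap or touch in all 4 genes, and the 92.2 CPM of Mrps6 in vehicle 2 stands above the other 5 vehicle libraries.

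In the small subunit, the gene with the largest positive difference was Mrps6. Its vehicle libraries ranged from 35.4 through a median of 45.5 to 92.2 CPM and its epinephrine libraries from 54.7 through 63.4 to 86.1 CPM. The highest vehicle library, vehicle 2, lay above every epinephrine library, and the other 5 lay at or below 52.6 CPM, under all 6 epinephrine libraries. The log2 fold change was 0.42 (SE 0.23), with an edgeR adjusted p of 0.417. Without vehicle 2 it was 0.70, with an adjusted p of 0.0251, and without the 3 libraries rich in Gpx5 it was 0.48, with an adjusted p of 0.032. Mrps6 also passed with limma-voom, at 0.0395, and in replicate numbers 4 to 6 alone, at 0.00979. It passed in no other of the 25 settings, DESeq2, the replicate block and the epididymal covariate among them. The log2 fold change lay between 0.24 and 0.70 in all 25, and the adjusted p reached 0.943. Mrps6 (chr16:92058336-92112227, plus strand, GRCm38) encloses Slc5a3 and shares exon bases with it on the same strand, so that reads there could be counted for either gene. Slc5a3, the sodium and myo-inositol cotransporter, had 67.2 ± 29.6 CPM with vehicle and 121 ± 21.6 CPM with epinephrine (log2 fold change 0.85, adjusted p = 0.0704). The level of Mrps6 is uncertain for that reason.

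The largest negative difference in the small subunit was that of Mrps2, the counterpart of bacterial protein S2, from 28.6 ± 4.13 to 24.8 ± 1.25 CPM (log2 fold change -0.21, SE 0.09, adjusted p = 0.26). The 3 paralogs of the protein S18, which sit in different places on the ribosome, that of Mrps18a in the large subunit despite its name, had differences of both signs. Mrps18a had 31.3 ± 5.76 CPM with vehicle and 32.3 ± 4.74 CPM with epinephrine, Mrps18b 12.2 ± 1.92 and 13.0 ± 1.02 CPM, and Mrps18c 20.7 ± 0.993 and 19.5 ± 0.666 CPM. Their log2 fold changes of 0.05, 0.09 and -0.09 had adjusted p-values of 0.94, 0.80 and 0.417. The first 2 of these changed sign with library size alone as the scaling, at -0.06 and -0.01. Mrps18c was called lower in that setting, at -0.2 (edgeR adjusted p = 0.042).

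Mrps36 carries its name from an early assignment, and its product is known as a subunit of the oxoglutarate dehydrogenase complex. It stood at 12.6 ± 1.59 and 14.4 ± 2.44 CPM (log2 fold change 0.20, SE 0.13, adjusted p = 0.514). Mrpl36 was the 1 member left out of the tests for low counts, with 5 to 16 counts per library. Its gene overlaps an exon of Ndufs6, a complex I subunit gene, on the opposite strand, and whether counting used the strand is not given in the sources used here.

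Levels between genes were compared per length, as RPKM, the normalised CPM divided by the length of the gene model in kilobases. The median member had 24.9 RPKM and the range was 2.78 to 87.8 RPKM. The 3 highest were Mrps21 at 87.8 ± 4.31, Mrpl30 at 81.4 ± 4.33 and Mrps6 at 76.5 ± 24.6 RPKM (SD, n = 12). The SD ranges of all 3 overlap, but the genes were measured in the same libraries, and Mrps21 stood above Mrpl30 in each of the 12. Mrps6 had 118 RPKM in vehicle 2, above both, and 45.4 RPKM in vehicle 5, below both. Its place in the order was therefore not fixed. The 3 lowest were Mrpl19 at 2.78 ± 0.246, Mrps25 at 3.42 ± 0.36 and Mrpl1 at 4.24 ± 0.242 RPKM. Their gene models are long, at 5016, 6076 and 4170 bases against 407 for Mrps21. Mrpl19 shares 1962 exon bases with Gcfc2 and Mrps25 shares 3533 with Nr2c2, each on the opposite strand, and 17 members in all share exon bases with another protein-coding gene.

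The most even member was Mrps35, with 22.2 to 25.1 CPM over all 12 libraries and a coefficient of variation of 3.04%. The most uneven was Mrpl37, at 83.7%. Mrpl37 encodes a large-subunit protein related to that of Mrps30. It ranged from 43.9 through a median of 53.3 to 292 CPM with vehicle and from 44.2 through 52.2 to 182 CPM with epinephrine. Vehicle 2 had 292 CPM, epinephrine 2 had 182, epinephrine 1 had 155 and vehicle 3 had 90.8, while the other 8 libraries lay between 43.9 and 53.9 CPM. The log2 fold change of -0.13 had an SE of 0.57, its adjusted p was 0.961, and without vehicle 2 it was 0.65.

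The libraries high in Mrpl37 were also those highest in epididymal transcripts. An epididymal score, the mean log2 CPM of the epididymal markers, was highest in vehicle 2 at 10.64, epinephrine 1 at 10.56, epinephrine 2 at 9.92 and vehicle 3 at 8.36, and at most 6.9 in the others. Mrps6 had 92.2, 83.9 and 86.1 CPM in the first 3 of these and at most 65.9 CPM elsewhere. Mrpl52, a large-subunit gene whose promoter is printed above, had 39.9, 42.1 and 33.6 CPM in them and at most 26.5 CPM elsewhere. Mrpl20 and Mrps18a ran the other way, with their lowest levels, 35.6 and 21.5 CPM, in vehicle 2.

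In a fit of group and score together, chosen after the data were seen, 6 of the 77 members rose with the score and 25 fell, at an edgeR adjusted p under 0.05. Over all genes tested 21.2% rose and 21.3% fell. The steepest rises per unit of score were 0.20 for Mrpl37 on the log2 scale (adjusted p = 0.00327), 0.08 for Mrps6 (adjusted p = 0.0068) and 0.07 for Mrpl52 (adjusted p = 0.00815). Mrpl41, Mrpl43 and Mrpl57 were the other 3 that rose. Without the libraries rich in Gpx5, the slopes of Mrpl37, Mrps6 and Mrpl52 were 0.063, 0.039 and 0.017. None of these passed (edgeR adjusted p = 0.356, 0.369 and 0.605). Mrps18a, at -0.05 per unit (adjusted p = 0.00763), and Mrpl20, at -0.04 (adjusted p = 0.0055), were among those that fell.

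The number of falling members depended on scaling and on 3 libraries. It was 22 with RLE factors, where 19.9% of all genes fell. With library size alone, 9 members fell and 8 rose, against 12.9% and 27.6% of all genes. Without vehicle 2, epinephrine 1 and epinephrine 2, 0 members rose and 0 fell by edgeR, and 81 of all genes rose and 0 fell. Between vehicle and epinephrine, with the score as a covariate, 1 member was higher, Mrpl54, and 1 lower, Mrpl44, against 4.02% and 5.9% of all genes, and without the 3 libraries 1 was higher, Mrps6, and 0 lower, against 4.87% and 6.37%.

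**Figure D4:**
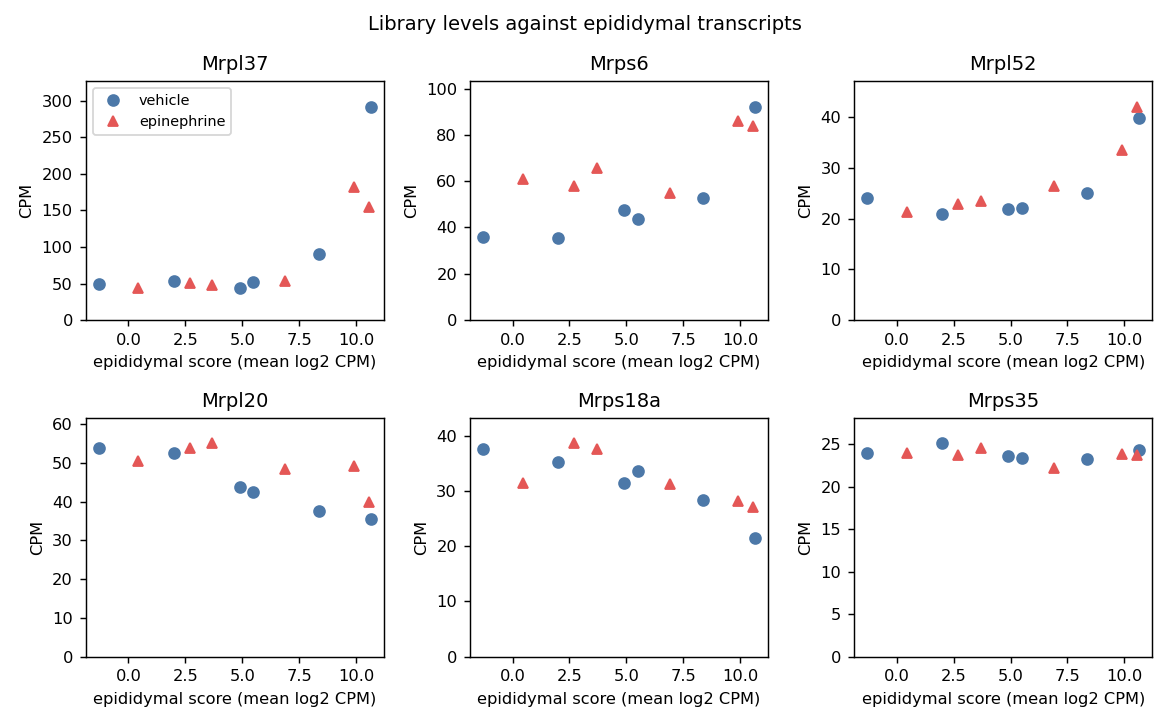
CPM of 6 mitochondrial ribosomal protein genes in each library against the epididymal score of that library (mean log2 CPM of epididymal markers), with vehicle as circles and epinephrine as triangles. Mrpl37, Mrps6 and Mrpl52 are highest in the 3 libraries with scores of 9.92 to 10.64, Mrpl20 and Mrps18a are lowest in vehicle 2, and Mrps35 stays between 22.2 and 25.1 CPM.

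Mitochondrial ribosomal protein genes took up 0.235% ± 0.0094 of all counts in vehicle and 0.222% ± 0.0106 in epinephrine libraries (SD, n = 6). Leaving out Mrpl37, the shares were 0.224% ± 0.00393, between 0.221% and 0.229%, and 0.213% ± 0.0052, between 0.206% and 0.219%. These ranges did not overlap. After TMM scaling the order turned, with a summed level of 2160 ± 129 CPM without Mrpl37 in vehicle and 2210 ± 96.9 CPM in epinephrine libraries. The TMM factors themselves averaged 1.04 ± 0.0478 and 0.964 ± 0.0377. With library size alone as the scaling, the median log2 fold change of the members was -0.079 and that of all genes -0.108, 8 members fell and 0 rose, and over all genes 361 were higher and 1466 lower, in place of 428 and 579.

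Several members have a neighbour that starts close by and is read the other way. In the GENCODE M21 annotation, 18 of the 78, or 23.1%, have the start of another protein-coding gene, on the opposite strand and directed away, within 1000 bases, against 6.77% of 22028 protein-coding genes. All 18 partners were tested, and 1 was higher and 0 were lower with epinephrine, against 2.65% and 3.58% of all genes tested. That partner was Ppp1r10, a regulatory subunit of protein phosphatase 1, which starts 45 bases from Mrps18b. Ppp1r10 rose from 42.7 ± 4.33 to 67.9 ± 6.98 CPM (log2 fold change 0.67, SE 0.09, edgeR adjusted p = 0.000859), while Mrps18b had a log2 fold change of 0.09. Cyb5rl, which starts 120 bases from Mrpl37, had 25.2 CPM in vehicle 2, where Mrpl37 was highest, and between 6.41 and 17.9 CPM in the other libraries.

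The remaining genes of mitochondrial gene expression were examined as lists. The 5 mitochondrial ribosome proteins with names outside the Mrpl and Mrps series had 0 genes higher and 0 lower and a median log2 fold change of 0.046, and the smallest p was that of Chchd1 (0.08, adjusted p = 0.692). Genes fell in the lists of assembly and ribosomal RNA modification, translation factors, synthetases and transcription, and these lists are joined next. The nuclear regulators and the proteases and chaperones, of which 0 fell, are left out of the joined list. So are the ribosome proteins with other names and the genes of the mitochondrial genome, of which 0 fell too. The lists were chosen with earlier results of these data known, so that the joined share is a description. Leaving out the lists without a fall raises that share by choice. It therefore cannot show that such genes fall more often than others. Over assembly and ribosomal RNA modification, translation factors, aminoacyl-tRNA synthetases and mitochondrial transcription together, 8 of 71 genes tested fell and 0 rose, 11.3% lower against 3.58% of all genes tested. The number that fell moved with the scaling and the test. It was 22 with library size alone, where 9.06% of all genes fell. It was 17 with voom, against 9.29%, and 13 with the epididymal covariate, against 5.9%. With DESeq2 it was 12, against 3.8% of the 22945 genes given a fold change there, low-count genes among them. In replicate numbers 1 to 3 alone it was 0, and no gene was called. In the other settings it was 6 to 11, and 1 gene rose with DESeq2. The median of these 71 was -0.099, and -0.208 with library size alone, and 59 had a value below 0, or 83.1%, against 50.2% of all genes. The difference between these lists and the ribosomal protein genes was not tested.

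Among the 27 assembly and modification genes, 2 fell, against 3.58% of all genes tested. Mettl17, which encodes a methyltransferase-like assembly factor of the small subunit, went from 16.9 ± 1.34 to 11.6 ± 1.70 CPM (log2 fold change -0.54, SE 0.10, adjusted p = 0.00788). Rpusd4, which encodes a pseudouridine synthase needed for the large subunit, went from 14.3 ± 0.65 to 11.2 ± 0.681 CPM (-0.35, SE 0.06, adjusted p = 0.00635). In both genes every epinephrine library lay below every vehicle library, which held for 2.74% of all genes.

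Of the 17 translation factors, 1 fell, against 3.58% of all genes tested. Mtif3, the initiation factor that keeps the ribosomal subunits apart, had 15.7 to 18.0 CPM with vehicle and 12.1 to 14.4 CPM with epinephrine (log2 fold change -0.39, SE 0.06, adjusted p = 0.00387). Of the 20 synthetases, which charge mitochondrial transfer RNAs, 2 fell, against the same 3.58%. Hars2, the histidyl enzyme, went from 33.5 ± 1.39 to 27.7 ± 0.778 CPM (-0.28, adjusted p = 0.00398), and Pars2, the prolyl enzyme, from 6.25 ± 1.07 to 3.46 ± 0.533 CPM (-0.85, adjusted p = 0.00513).

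All 7 genes of mitochondrial transcription had values below 0, and 3 fell, against 50.2% and 3.58% of all genes tested. Tfam, which packages mitochondrial DNA and starts its transcription, had 26.9 to 28.5 CPM with vehicle and 21.4 to 24.6 CPM with epinephrine (log2 fold change -0.28, SE 0.05, adjusted p = 0.00579). Polrmt, the mitochondrial RNA polymerase, went from 30.6 ± 2.11 to 25.2 ± 1.25 CPM (-0.28, adjusted p = 0.0158, and 0.0754 with the replicate block). Mterf1a, a termination factor gene, went from 1.99 ± 0.221 to 1.26 ± 0.293 CPM (-0.66, adjusted p = 0.0475), with overlapping groups. The list median was -0.277.

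The upstream regulators and the products showed few calls. Of 9 nuclear regulators, 0 passed in the TMM-scaled edgeR fit of group alone. With the block 1 did, Myc, a growth-related transcription factor, which averaged 36.7 ± 20.1 CPM in vehicle and 65.2 ± 25.6 CPM in epinephrine libraries. The Myc difference was 0.83 on the log2 scale without the block (SE 0.40, adjusted p = 0.319) and 0.92 with it (SE 0.16, adjusted p = 0.0266). Myc also passed with voom, at 0.0202, and with the epididymal covariate, at 0.0291. Gabpa, the ETS subunit whose motif is described above, had the smallest p among them in the edgeR fit of group alone. It stood at 51.2 ± 6.41 and 44.5 ± 4.04 CPM (-0.20, adjusted p = 0.282, and -0.31 with 0.022 under library size alone). Of the 13 messenger RNAs encoded by mitochondrial DNA, 0 passed, their median was 0.027, and the smallest p was that of COX3, a complex IV subunit (-0.14, adjusted p = 0.586). Their vehicle means ran from 2.46 CPM for ND4L to 10500 CPM for COX1, with COX3 at 12.8 CPM. Whether reads of the low ones were fully counted was not tested. Of 13 mitochondrial protease and chaperone genes, 2 rose and 0 fell, against 2.65% and 3.58% of all genes tested. Hspe1, the co-chaperonin, had 37 to 44.3 CPM with vehicle and 83.7 to 142 CPM with epinephrine (log2 fold change 1.46, SE 0.13, adjusted p = 9.15e-05). Hspd1, its partner chaperonin, which shares a promoter region with it, went from 206 ± 30.8 to 413 ± 73.0 CPM (1.00, SE 0.14, adjusted p = 0.0013).

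**Figure D5:**
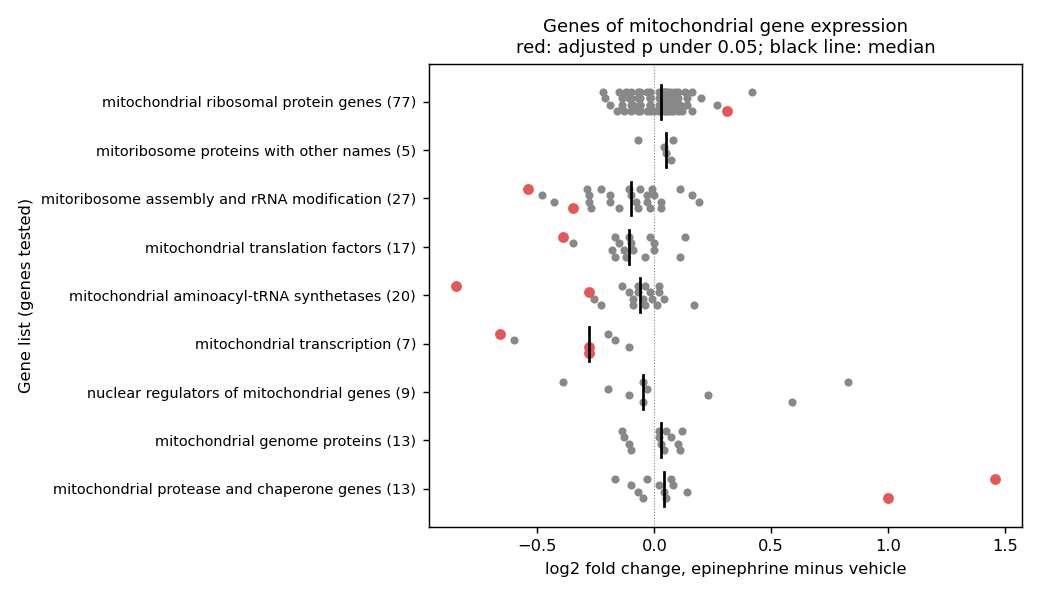
Log2 fold change, epinephrine minus vehicle, of every tested gene in 9 lists of mitochondrial gene expression, with the median as a line and genes past the adjusted threshold in red. The 77 ribosomal protein genes sit around a median of 0.026, the transcription list around -0.277, and the 2 genes furthest to the right are Hspe1 and Hspd1.

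Few markers of the cells that fat can hold passed between the groups, where 6.23% of all genes tested passed in either direction. No marker passed among 10 adipocyte, 9 fibroblast and progenitor, 5 B cell and 6 mesothelial genes tested. Of 10 macrophage and monocyte genes, 0 passed, but Cd14, a co-receptor for bacterial lipopolysaccharide, lay at the threshold, with 43.3 ± 22.5 CPM in vehicle and 106 ± 31.7 CPM in epinephrine libraries (log2 fold change 1.29, SE 0.35, edgeR adjusted p = 0.0502). Cd14 passed in 12 of 25 other settings, among them the replicate block, at 0.0218, and the omission of the 3 libraries rich in Gpx5, at 0.017. However, 8 of the 10 macrophage and monocyte genes had values below 0, and their median was -0.061. The summed macrophage markers held 0.085% to 0.172% of counts in vehicle and 0.0769% to 0.202% in epinephrine libraries. Of 9 endothelial genes, Cldn5, a tight junction gene, was higher (log2 fold change 1.06, adjusted p = 0.0355), a call that held in 15 of 25 other settings. The endothelial list as a whole had a median of -0.013, with 6 of the 9 below 0. Of 5 smooth muscle genes, Tagln was higher (0.53, adjusted p = 0.0123), in 24 of 25 other settings too, and all 5 had values above 0. Of 10 T cell and NK cell genes, Gzmb, a cytotoxic granule protease, was higher (1.42, adjusted p = 0.00981) and Ncr1, an NK cell receptor, lower (-0.98, adjusted p = 0.0452). Both were low in level. Gzmb had 0.83 ± 0.273 CPM in vehicle and 2.23 ± 0.753 CPM in epinephrine libraries, and Ncr1 1.18 ± 0.311 and 0.595 ± 0.222 CPM. In this list 7 of the 10 genes had values below 0. The groups overlapped in Ncr1, and its call was lost in 17 of 24 other settings, the replicate block among them, at 0.0782. The part of cell composition in the values of the ribosomal protein genes was not tested.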

How the data were processed

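RNA of epididymal fat from 12 male mice, 6 per group, was sequenced, and groups and replicate numbers come from the sample titles; the biological replicates are separate samples per the labels. Processing steps, per the submitters' processing notes, used cutadapt, FastQC, HISAT2, featureCounts and DESeq2 with the build mm10. The annotation, the strand setting of counting and tool versions were not given in the sources used here. The authors deposited whole-number counts per gene with no normalization and, in a second deposited table, variance-stabilized values on a log2-like scale; the deposited gene lengths in bases were used for RPKM. Gene models without a symbol, 1312 in all, stayed in library sizes and tests.

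Low counts were removed by filterByExpr of edgeR (minimum count 10, minimum total 15), libraries were scaled by TMM and genes were tested with the robust quasi-likelihood F test over the 12 libraries (R 4.3.3, edgeR 4.0.16, limma 3.58.1). P-values were Benjamini-Hochberg adjusted over all 16175 genes tested, with a threshold of 0.05. CPM and RPKM are TMM-normalised, with a prior count of 1 on the log2 scale. The script was tested on simulated data. Members and gene lists were chosen with earlier results of these data known.

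Genes were named by a rule: members past the threshold, the 3 largest differences each way, the 3 highest and 3 lowest levels, members not tested, the Mrps18 paralogs, and for each other list the genes past the threshold or, with none, the one with the smallest p, which is left out for the cell markers. Mrpl37, Mrpl52, Mrpl20, Mrps35, Mrps36, Mrpl41, Mrpl43, Mrpl57, Myc, Cd14 and the neighbouring genes were named after their values were seen. Positions and promoters come from RefSeq GRCm38.p6 and GENCODE M21, matched by gene identifier for all 78 members.

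As alternatives, scaling used RLE factors, upper quartile factors or library size alone; the filter was dropped or set to a mean CPM of 1; and tests used DESeq2 1.42.0, limma-voom (weighted samples), limma on the VST values, a block for replicate number, numbers 1 to 3 and 4 to 6 apart, and omission of each library. An epididymal covariate and the omission of 3 libraries were added after seeing the data. Same-numbered libraries of the 2 groups deviated together from their group means, with correlations of 0.262 to 0.799 over 6 pairs. However, only 3 libraries had the same-numbered one as their closest match in the other group. The correlations therefore do not establish that the samples are paired, and the labels do not state a pairing. The block for replicate number rests on an assumed pairing.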

Additional observations from a re-analysis of the deposited data

Results flagged for a closer look

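In vehicle 2, 4 values lay far from the other 5 vehicle libraries by Dixon's criterion. Mrps6 had 92.2 CPM against 35.4 to 52.6, Mrpl37 had 292 CPM against 43.9 to 90.8, and Mrpl52 had 39.9 CPM against 21 to 25. The mitochondrial ribosomal protein genes together took 0.253% of the counts of vehicle 2 against 0.227% to 0.234%. This share includes Mrpl37. Without Mrpl37 it was 0.221% in vehicle 2, the lowest value in a vehicle range of 0.221% to 0.229%. Vehicle 2 also had the highest epididymal score. In all, 36 groups of values were examined, and chance alone flags about 1 in 20. Mrpl37 and Mrpl52 were examined after their values were seen, so that rate does not apply to them.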

How the results depend on the processing

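The median log2 fold change of the mitochondrial ribosomal protein genes was -0.079 with library size alone, and 0.012 to 0.049 when single libraries were left out. The count of members higher, 1 as reported, was 0 with upper quartile factors, library size alone, no filter, the deposited log2-scale values, the replicate block and replicate numbers 1 to 3 alone, 2 with DESeq2, 3 with voom and 0 to 2 with single libraries left out. The count lower, 0 as reported, was 8 with library size alone, 2 with voom, 1 with upper quartile factors, a mean CPM of at least 1, DESeq2, the epididymal covariate and replicate numbers 4 to 6 alone, and 0 to 1 with single libraries left out.

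Over all genes, 428 were higher and 579 lower. Those higher were 760 with DESeq2, 1026 with voom, 650 with the covariate, 786 without the 3 Gpx5-rich libraries, 0 with numbers 1 to 3 alone, 696 with 4 to 6 alone and 317 to 549 with single libraries left out. Those lower were 1466 with library size alone, 873 with DESeq2, 1503 with voom, 365 with the replicate block, 954 with the covariate, 1028 without the 3 libraries, 0 with numbers 1 to 3 alone and 276 to 797 with single libraries left out. With library size alone, 361 were higher, and with numbers 1 to 3 alone, 1356 had an unadjusted p under 0.05 in edgeR. The cause of these differences was not tested.

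Mrpl37 turned to 0.01 on the deposited scale, and ran from -0.47 to 0.65 with single libraries left out, turning without vehicle 2 (0.65), epinephrine 4 (0.03) or epinephrine 6 (0.01). Mrps18a turned to -0.06 with library size alone, and ran from -0.02 to 0.11 with single libraries left out, turning without vehicle 2 (-0.02) or epinephrine 5 (-0.01), and Mrps18b to -0.01 and, with numbers 4 to 6 alone, -0.10. With the replicate block, the adjusted p of Mrpl54 was 0.112 and that of Polrmt 0.0754; Mterf1a also lost its call. Numbers 1 to 3 alone ended every call, by edgeR with 3 libraries per group.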
